A study of Mus musculus with 16 samples.

Results

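The transcripts of 10 centromere protein (CENP) genes, *Cenpa*, *Cenpc1*, *Cenpe*, *Cenpf*, *Cenpi*, *Cenpk*, *Cenpl*, *Cenpn*, *Cenpt* and *Cenpu*, were measured by UMI RNA-seq in mouse cerebral cortex at E15.5. They were chosen by name, with earlier results of these data known, from 51912 genes listed in each count file, which hold 11 other genes with a *Cenp* symbol. The groups were 7 ctrl mice, 4 *Knl1* cKO mice and 4 *Knl1* *Trp53* dKO mice, of both sexes and of mixed genetic background. *Knl1* is also called *Casc5*. The ctrl mice are *Casc5* wild type (2, 6, S1, S3 and T3) or heterozygous (T4 and T5), and the labels used here give neither their Cre nor their *Trp53* status. In cKO mice (5, 7, S2 and F3), *hGFAP-Cre* deletes *Knl1*, and in dKO mice (T2, T8, F1 and F7) it deletes *Knl1* together with *Trp53*, which encodes p53. This Cre acts in cortical neural progenitor cells and their descendants, while interneurons, microglia and vessel cells of the dissected cortex arise from other lineages. The comparisons ask whether the kinetochore's inner and outer CENP genes change their transcript level when KNL1, their partner at the outer kinetochore, is deleted, with and without p53.

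Depth ranged from 399832 to 3266227 counts per ctrl mouse, from 4178461 to 8800987 per cKO mouse and from 552186 to 5396803 per dKO mouse, so every cKO mouse was deeper than every ctrl mouse. Mouse S2 had 2 libraries, which were summed, since the chi-square per degree of freedom between them was 1.14, against 3.56 or more between libraries of different cKO mice. Batch and litter, as the labels name them, were not balanced. All 4 dKO mice and cKO mouse F3 were in batch 3, the other 3 cKO mice were in batch 1, and no ctrl mouse came from litter 4, which held F1, F7 and F3. The deletion could not be checked from the level of the whole gene. The mean of *Knl1* was 62.8 ± 13.5 CPM over the 7 ctrl mice (SD), 58.2 ± 14.8 over the 4 cKO mice and 49.8 ± 11.6 over the 4 dKO mice, and *Trp53* spanned 19.8 to 32.3 CPM in dKO against 15.6 to 47.0 in ctrl. CPM are the reads of a gene relative to the library size, as corrected by TMM scaling. A cortex with fewer dividing cells and a cortex with less RNA per dividing cell cannot be told apart in such bulk samples.

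The kinetochore is built on centromeric nucleosomes that carry CENP-A in place of histone H3. On them sits the constitutive centromere-associated network, of which CENP-C, CENP-I, CENP-K, CENP-L, CENP-N, CENP-T and CENP-U are subunits. CENP-C and CENP-T connect it to the outer KMN network (KNL1, MIS12 complex and NDC80 complex), which binds microtubules and, through KNL1, recruits spindle assembly checkpoint proteins. CENP-E and CENP-F belong to the fibrous corona, the outermost layer in mitosis. In embryonic cortex, dividing cells are the progenitors of the germinal zones, and several CENP genes are known to be transcribed mainly in G2. Promoter elements known from cell-cycle genes are the CCAAT box and the element TTTGAA, a form of the cell cycle genes homology region.

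The promoters of *Cenpa* and *Cenpf* are shown because they carry the same elements, while *Cenpa* had the lowest log fold change of the 10 genes in dKO and *Cenpf* one near 0. Both windows run 5′ to 3′ from 150 bases before the RefSeq transcript start to 30 bases after it (GRCm38.p6), with CCAAT boxes (CCAAT, or ATTGG on the other strand) and TTTGAA in capitals. The *Cenpa* window is chr5:30666736-30666915 on the plus strand and the *Cenpf* window is chr1:189688057-189688236 on the minus strand.
Cenpa: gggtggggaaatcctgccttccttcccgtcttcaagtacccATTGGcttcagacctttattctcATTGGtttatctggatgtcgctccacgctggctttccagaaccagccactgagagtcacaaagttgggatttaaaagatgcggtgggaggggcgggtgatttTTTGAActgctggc
Cenpf: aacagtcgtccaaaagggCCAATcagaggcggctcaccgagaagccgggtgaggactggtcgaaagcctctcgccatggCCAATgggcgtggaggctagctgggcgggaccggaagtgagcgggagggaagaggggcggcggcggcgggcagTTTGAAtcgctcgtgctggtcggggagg
In *Cenpa*, the CCAAT boxes begin 109 and 86 bases before the RefSeq start and TTTGAA begins at base 17 of the RefSeq transcript. The annotated gene starts at 30666777, inside this window and before the RefSeq start, so these positions depend on the start used. In *Cenpf*, they begin 132 and 71 bases before the start and TTTGAA begins at base 3. A search of both strands of the promoters in the RefSeq table (250 bases before to 50 after each start) found TTTGAA or TTCAAA in 4 of the 10 genes (*Cenpa*, *Cenpf*, *Cenpl* and *Cenpn*), against 17.9% of 32851 promoters. CCAAT or ATTGG was found for 9 of the 10, all but *Cenpt*, against 37.4% of all promoters, and *Cenpk* has 3 promoters in the table. These matches describe letters and were not tested as sites.

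The levels in ctrl were ordered per kilobase of merged exons (the union of exons of all annotated transcripts). *Cenpc1* stood first at 15.1 ± 4.32 CPM per kb (SD, n = 7) and was above *Cenpe*, the next gene, in 7 of 7 ctrl mice. A middle tier followed, with *Cenpe* at 7.30 ± 1.98, *Cenpt* at 6.80 ± 1.06, *Cenpa* at 6.28 ± 1.59 and *Cenpf* at 5.89 ± 1.61 CPM per kb. Neighbours in this tier did not differ beyond their spread, since the higher mean was above the lower in 4, 5 and 3 of 7 ctrl mice. *Cenpf* was above *Cenpi* (3.65 ± 1.34 CPM per kb) in 6 of 7 mice. Below *Cenpi* came *Cenpn* at 3.24, *Cenpk* at 2.65, *Cenpu* at 1.89 and *Cenpl* at 1.05 CPM per kb, and neighbours there were in this order in 4 or 5 of 7 mice. The lower members rested on few reads: in ctrl, *Cenpl* had 1 to 19 counts, *Cenpk* 5 to 35, *Cenpn* 5 to 37 and *Cenpu* 0 to 27. *Cenpa* had rank 4 in ctrl, rank 5 in cKO at 4.23 CPM per kb and rank 7 in dKO at 3.32 CPM per kb, while *Cenpc1*, *Cenpe* and *Cenpt* were the first, the second and the third in all 3 groups.

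None of the 10 genes differed between cKO and ctrl at an FDR below 0.05 (edgeR likelihood ratio test, adjusted over all 51912 listed genes), where 0.160% of all genes did. At an unadjusted p below 0.05, 1 of the 10 passed, against 10.4% of the 10855 genes with a mean of at least 5 CPM. In the dKO to ctrl comparison, again none passed the FDR, against 0.0501% of all genes, and 1 passed the unadjusted p, against 5.73% of the 10855 genes. Between cKO and dKO none passed either, against 0.0520% by FDR and 4.06% by unadjusted p. The gene at an unadjusted p below 0.05 was *Cenpa* in both comparisons with ctrl. By the quasi-likelihood F test, 0 of the 10 genes passed the same FDR between cKO and ctrl (0.678% of all genes did), 1 passed between dKO and ctrl (0.218%) and 0 between cKO and dKO (0.354%). DESeq2 also called none, but it gave no adjusted p for 9 of the 10 genes in dKO versus ctrl. In no comparison were the CPM of the groups apart for any of the 10 genes, while this held for 1.25% of the 10855 genes in cKO versus ctrl, 0.673% in dKO versus ctrl and 3.88% in cKO versus dKO. The median log fold change of the 10 genes was −0.03 in cKO versus ctrl, −0.06 in dKO versus ctrl and 0.06 in cKO versus dKO, on the log2 scale as all log fold changes here. For the 10855 genes it was 0.04, 0.02 and 0.05.

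**Figure D1:**
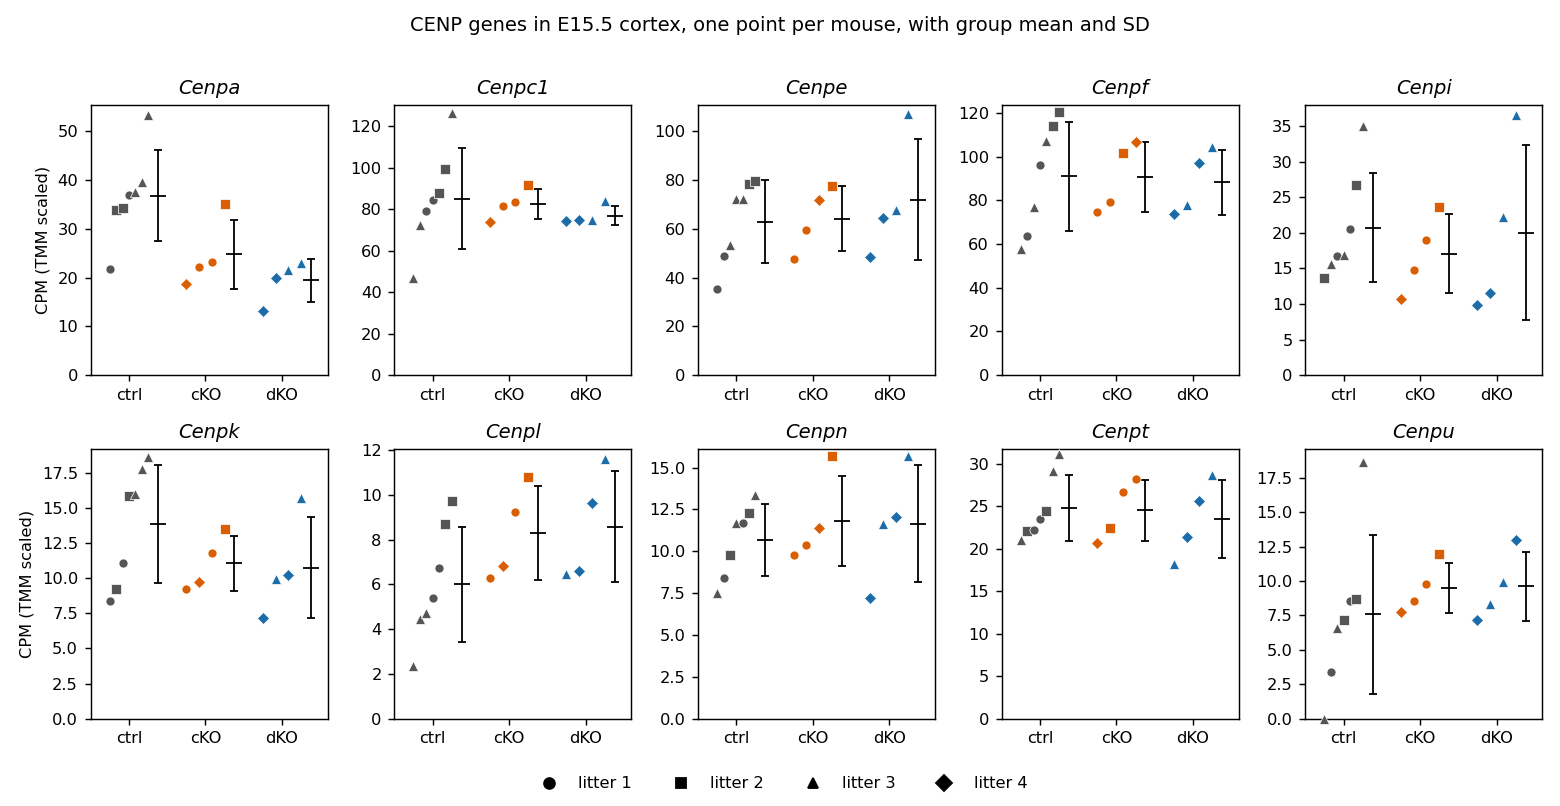
TMM-scaled CPM (vertical axes, starting at 0) of each CENP gene in each of the 7 ctrl, 4 cKO and 4 dKO mice, with symbols for litters and black bars for the group mean and SD. For *Cenpa*, all 4 dKO mice are at 23.1 CPM or less and 6 of the 7 ctrl mice are at 33.8 CPM or more. For all 10 genes, *Cenpa* included, the ranges of the 3 groups overlap.

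*Cenpa* encodes the histone H3 variant that marks the centromere. Its gene (ENSMUSG00000029177) is protein coding and lies on chromosome 5 of GRCm38 from 30666777 to 30674830. In ctrl it was at 21.8 CPM at the lowest, 37.0 at the median and 53.3 at the highest. In cKO it was at 22.1, 23.3, 35.0 and 18.6 CPM in mice 5, 7, S2 and F3. In dKO it was at 21.5, 23.1, 19.9 and 13.2 CPM in T2, T8, F1 and F7. All dKO mice were low, 3 of 4 cKO mice were near them, and S2 was level with ctrl. The ranges of ctrl and dKO overlapped only through ctrl mouse 6, which was below dKO mouse T8 and above the other 3.

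The level of *Cenpa* was 0.532 times that of ctrl in dKO (95% interval 0.386 to 0.732), or −0.91 as a log fold change, with a standard error of 0.24 and an edgeR FDR of 0.188. By log fold change, 26 of the 10855 genes, *Cenpa* among them, were at or below it. The quasi-likelihood F test of edgeR gave the same log fold change with an FDR of 0.0195, in a fit that called 0.218% of all genes. Without ctrl mouse 6 the log fold change was −1.05 (edgeR FDR = 0.00806, with 0.0482% of all genes called). This mouse had the lowest ctrl value of *Cenpa*, so leaving it out could only widen the difference. Among the fits that left out another mouse, the FDR was lowest without T8 (0.0552) and the change was smallest without F7 (−0.69, edgeR FDR of 1). With the wild-type ctrl mice alone the log fold change was −0.79 (edgeR FDR = 0.953). DESeq2 gave −0.94 and no adjusted p. The call therefore turned on the test and on 1 ctrl mouse, while the direction was the same in every alternative run.

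In cKO, *Cenpa* was at 0.712 times the ctrl level (95% interval 0.533 to 0.952), or −0.49 as a log fold change, with a standard error of 0.21 and an edgeR FDR of 0.852. An exact two-sided permutation test over mice of its log2 CPM gave an unadjusted p of 0.0697. Within batch 1 the log fold change was −0.11 (standard error 0.27) and with litter as a covariate −0.07 (edgeR FDR of 1 for both). Litter 2 held S2 at 35.0 CPM beside ctrl mice S1 and S3 at 34.2 and 33.8 CPM. Litter 1 held cKO mice 5 and 7 at 22.1 and 23.3 CPM beside ctrl mice 6 and 2 at 21.8 and 37.0 CPM. In these litters the cKO mice were not all below the ctrl mice. Without S2 the log fold change was −0.70 (edgeR FDR = 0.0827), and with the wild-type ctrl mice alone it was −0.33. Within batch 1 the difference was thus smaller than its error.

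In litter 3, both dKO mice (21.5 and 23.1 CPM) were below all 3 ctrl mice (T3 at 39.7, T4 at 37.6 and T5 at 53.3 CPM). Of these, T4 and T5 are heterozygous. The share of all genes that were apart in this litter was not counted, so no conclusion is drawn from this order of few mice. The 5 libraries of this litter held between 399832 and 1023405 counts, so that *Cenpa* rested on 13 and 25 counts in dKO and 17, 40 and 24 counts in ctrl. Within batch 3 the log fold change was −1.23 (edgeR FDR = 0.0669), and with litter as a covariate −0.91 (edgeR FDR of 1). The estimate with litter rests on the same 5 mice, since no other litter held both dKO and ctrl mice. The direct comparison of cKO with dKO gave 0.46 for *Cenpa* (95% interval −0.05 to 0.96, edgeR FDR of 1). Within batch 3, where F3 was the only cKO mouse, it was 0.04.

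**Figure D2:**
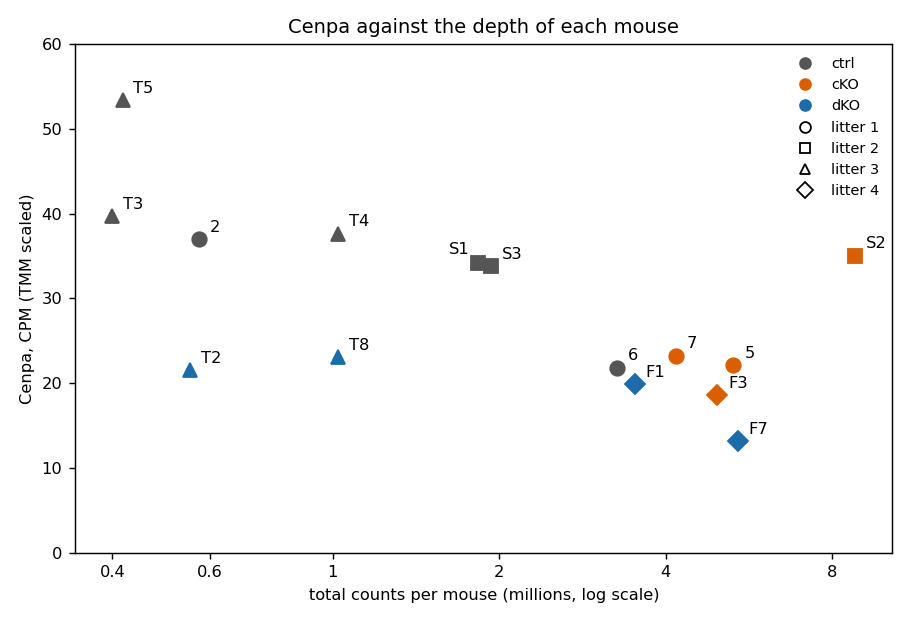
*Cenpa* in TMM-scaled CPM (vertical axis) against the total count of each mouse (horizontal axis, log scale), with colours for groups and symbols for litters. Ctrl mouse 6, the deepest ctrl mouse, has the lowest ctrl value (21.8 CPM). The dKO mice T2 and T8 are below the ctrl mice T3, T4 and T5 of the same litter at like depth. The share of all genes apart in this litter was not counted.

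Depth moved with the *Cenpa* level among ctrl mice. The highest value (53.3 CPM) was in T5, with 417440 counts, and the lowest (21.8 CPM) in mouse 6, with 3266227 counts. The deepest of all mice, cKO mouse S2 with 8800987 counts, was at 35.0 CPM. The part of depth in the *Cenpa* differences was not tested.

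Among the subunits of the centromere-associated network, *Cenpc1* encodes CENP-C, which binds CENP-A nucleosomes and recruits the MIS12 complex. It was at 46.7, 84.5 and 126 CPM in ctrl (lowest, median and highest), at 83.5, 81.5, 91.4 and 73.6 CPM in cKO mice 5, 7, S2 and F3, and at 74.6, 84.1, 74.6 and 74.3 CPM in dKO mice T2, T8, F1 and F7. All mutants lay inside the ctrl range. Its intervals were the narrowest of the 10 genes in the 3 comparisons: the fold was 0.957 in cKO (95% interval 0.787 to 1.16) and 0.899 in dKO (0.727 to 1.11).

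*Cenpl* and *Cenpn* encode partners of 1 complex, in which CENP-N contacts the CENP-A nucleosome. *Cenpl* was at 2.33, 5.38 and 9.73 CPM in ctrl (lowest, median and highest), at 6.30, 9.25, 10.8 and 6.82 CPM in cKO mice 5, 7, S2 and F3 and at 11.6, 6.47, 9.66 and 6.60 CPM in dKO mice T2, T8, F1 and F7. Its log fold change was 0.32 in cKO (95% interval −0.26 to 0.90) and 0.29 in dKO (−0.38 to 0.97). All 8 mutants were above the ctrl median, and S2 and T2 were above every ctrl mouse, but both intervals include 0. The share of all genes with the 8 mutants on the same side was not counted. *Cenpn* was at 7.53, 11.7 and 13.3 CPM in ctrl, at 10.4, 9.75, 15.7 and 11.4 CPM in cKO and at 11.6, 15.7, 12.1 and 7.18 CPM in dKO, in the same order of mice. Its log fold change was 0.15 in cKO (95% interval −0.32 to 0.62) and 0.02 in dKO (−0.56 to 0.61).

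*Cenpi* and *Cenpk* encode subunits of the complex that also holds CENP-H and CENP-M. *Cenpi* was at 13.6, 16.9 and 35.0 CPM in ctrl, at 14.8, 19.0, 23.7 and 10.7 CPM in cKO mice 5, 7, S2 and F3 and at 36.5, 22.2, 11.5 and 9.90 CPM in dKO mice T2, T8, F1 and F7. In dKO, T2 and T8 of litter 3 were above F1 and F7 of litter 4, and F3 of litter 4 was the lowest cKO mouse. T2 and T8 rested on 22 and 24 counts. The share of all genes in this order was not counted, so no conclusion is drawn from it. The log fold change of *Cenpi* in dKO, −0.23 (95% interval −0.83 to 0.38), was −0.62 without T2 (edgeR FDR of 1) and 0.05 without F7. *Cenpk* was at 8.40, 15.9 and 18.7 CPM in ctrl, at 11.8, 9.25, 13.5 and 9.77 CPM in cKO and at 9.95, 15.7, 10.3 and 7.18 CPM in dKO, in the same order of mice. Its log fold change was −0.23 in cKO (95% interval −0.68 to 0.23) and −0.38 in dKO (−0.97 to 0.20), and all 8 mutants were below the ctrl median.

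*Cenpt* encodes a histone-fold protein that recruits NDC80 complexes. It varied least among ctrl mice relative to its mean, at 21.0, 23.5 and 31.1 CPM (lowest, median and highest). It was at 26.6, 28.3, 22.4 and 20.7 CPM in cKO mice 5, 7, S2 and F3 and at 18.2, 28.6, 25.7 and 21.3 CPM in dKO mice T2, T8, F1 and F7. The fold was 0.998 in cKO (95% interval 0.787 to 1.26) and 0.980 in dKO (0.746 to 1.29), so a change of the size seen for *Cenpa* in dKO was outside both intervals. *Cenpu* encodes a subunit that binds the mitotic kinase PLK1. It was at 0, 7.17 and 18.7 CPM in ctrl, at 8.53, 9.75, 11.9 and 7.73 CPM in cKO and at 9.95, 8.32, 13.0 and 7.18 CPM in dKO, in the same order of mice. The ctrl value of 0 was T5, in which 0 of 417440 counts allow up to 7.19 CPM before TMM scaling, for counting error alone. Its log fold change was 0.31 in cKO (95% interval −0.22 to 0.84) and 0.33 in dKO (−0.34 to 0.99). Exons of *Cenpu* share 1069 of their 3999 bases with *Primpol* on the opposite strand, and those of *Cenpk* share 233 of 5231 bases with *Ppwd1*. The strand setting of the counting is not given in the sources used here, so reads there cannot be told apart.

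At the corona, *Cenpe* encodes a kinesin that carries chromosomes towards the spindle equator. It was at 35.3, 72.4 and 79.8 CPM in ctrl (lowest, median and highest), at 47.5, 59.5, 77.5 and 72.1 CPM in cKO mice 5, 7, S2 and F3 and at 68.0, 107, 64.3 and 48.5 CPM in dKO mice T2, T8, F1 and F7. T8 was above every ctrl mouse and the others were inside the ctrl range. The log fold change was −0.01 in cKO (95% interval −0.37 to 0.35) and 0.15 in dKO (−0.26 to 0.56), and −0.12 without T8. *Cenpf* encodes a large coiled-coil protein that accumulates in the nucleus in G2 and binds the dynein partners NDE1 and NDEL1. It was at 57.8, 95.9 and 120.4 CPM in ctrl, at 79.4, 74.8, 101 and 107 CPM in cKO and at 77.9, 104, 97.2 and 73.5 CPM in dKO, in the same order of mice. Its fold was 0.950 in cKO (95% interval 0.760 to 1.19) and 0.935 in dKO (0.738 to 1.18). Its promoter has the elements shown above for *Cenpa*, and those of *Cenpl* and *Cenpn* also hold both on either strand. The part of these elements in the levels was not tested.

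**Figure D3:**
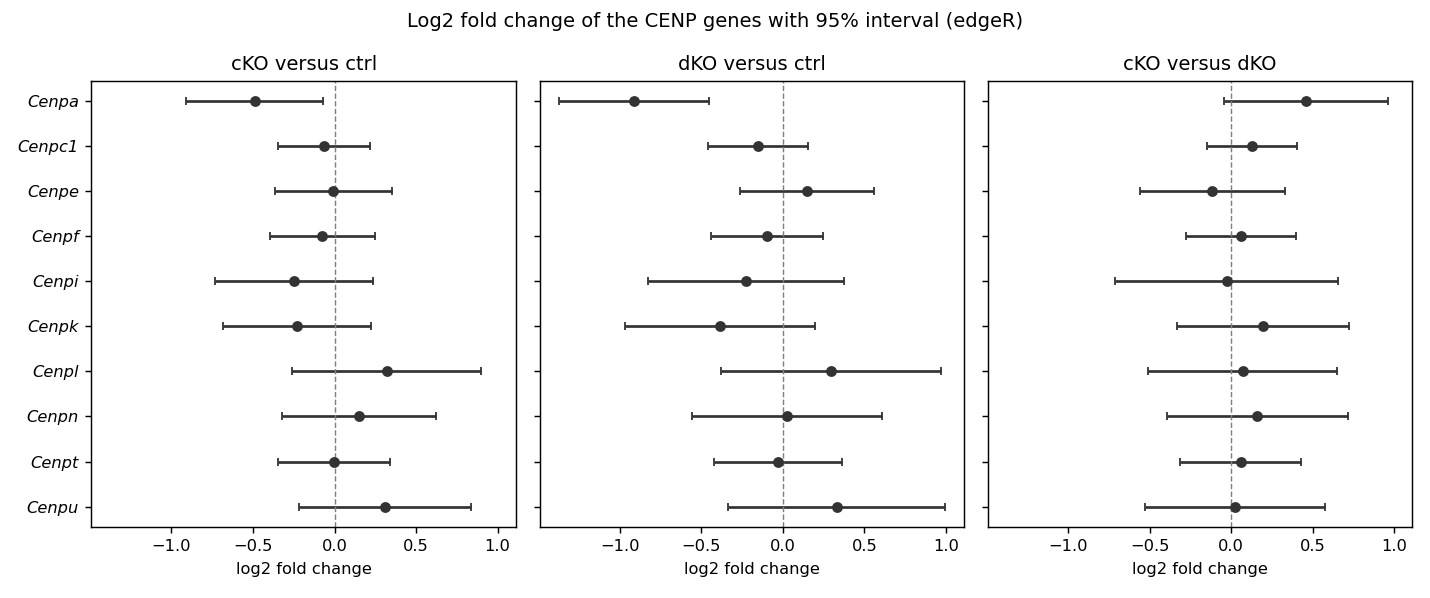
Log2 fold change of each CENP gene (points) with its 95% interval (bars) in the 3 comparisons, from edgeR without adjustment for the number of genes. The intervals of *Cenpa* lie below 0 in both comparisons with ctrl, at −0.91 to −0.07 in cKO and −1.37 to −0.45 in dKO, and all other intervals include 0.

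Between cKO and dKO, 8 of the 10 log fold changes were above 0 and 2 below, from −0.12 (*Cenpe*) to 0.46 (*Cenpa*), and all 10 intervals included 0. Of the 10855 genes, 6720 were above 0 and 4135 below. The split of the 10 genes turned on scaling and on single mice. With library totals in place of TMM it was 4 above and 6 below, within batch 3 also 4 and 6, and without F7 2 and 8. After *Cenpa*, the largest were *Cenpk* at 0.20 (95% interval −0.33 to 0.72) and *Cenpn* at 0.16 (−0.39 to 0.72).

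Across the 10 genes, some mice were high or low together. The mean log2 CPM of the 10 genes (prior count 2) was 4.55 ± 0.25 in ctrl (SD, n = 7), 4.59 ± 0.21 in cKO (SD, n = 4) and 4.55 ± 0.28 in dKO (SD, n = 4). Within groups it ran from 4.19 (T5) to 4.82 (S3 and T3) in ctrl, from 4.43 (F3) to 4.88 (S2) in cKO and from 4.16 (F7) to 4.79 (T8) in dKO. The means of T5 and T3 leaned on *Cenpu*, at −3.07 and 1.69 relative to its ctrl mean, from 0 and 8 counts. In T5, *Cenpa*, *Cenpk*, *Cenpn* and *Cenpt* were above their ctrl means and the other genes below, so T5 was not low throughout. The spread inside each group was larger than the differences between group means. The summed CPM of 20 genes of G2 and mitosis was also highest in S2 in cKO (1108) and in T8 in dKO (1145) and lowest in F7 in dKO (616), but in cKO it was lowest in mouse 5 (702) and not in F3.

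**Figure D4:**
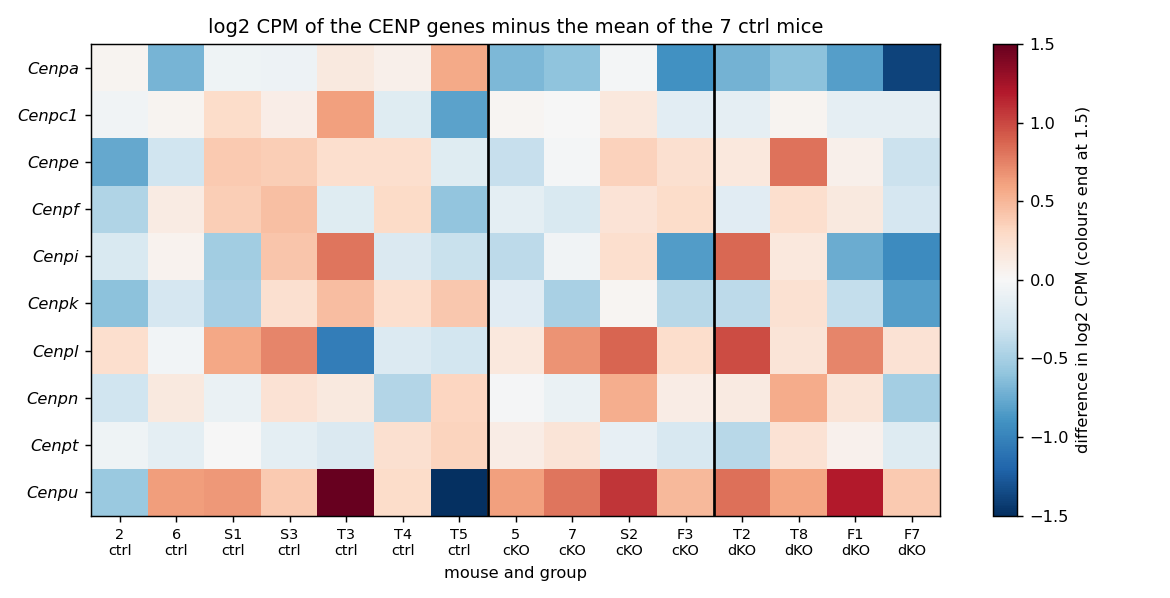
Log2 CPM (prior count 2) of each CENP gene in each mouse minus the mean of the 7 ctrl mice, red where higher and blue where lower, with black lines between groups and colours ending at 1.5. The row of *Cenpa* is blue in all 4 dKO mice and in cKO mice 5, 7 and F3, but also in ctrl mouse 6, while most cells of dKO mouse F7 are blue and most of cKO mouse S2 are red.

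The other genes of the centromere and kinetochore were followed by lists. In each list and comparison, no gene passed an FDR of 0.05 (edgeR) unless named here. Of the 10855 genes with a mean of at least 5 CPM, 4502 were lower and 6353 higher in cKO than in ctrl. In dKO, 5032 were lower and 5823 higher. Of 9 other centromere-associated network genes with counts, 7 were lower and 2 higher in cKO (median log fold change −0.15) and likewise in dKO (median −0.27), and none was at an unadjusted p below 0.05. The smallest p belonged to *Cenpw* in cKO (−0.64), to *Itgb3bp*, which encodes CENP-R, in dKO (−0.42) and to *Cenps* between cKO and dKO (0.60), each at an edgeR FDR of 1. *Cenpb* was listed at 0 in every mouse. Among genes of CENP-A deposition, which load CENP-A after mitosis, the smallest p in dKO was that of *Hjurp*, the chaperone of CENP-A. It had a mean of 96.8 ± 16.7 CPM over ctrl mice and 80.8 ± 8.14 over dKO mice (SD, n of 7 and 4), a log fold change of −0.29 (edgeR FDR of 1). Between cKO and dKO it was that of *Oip5* (0.75, edgeR FDR of 1).

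The 10 genes of the KMN network had medians of −0.07 in cKO and −0.12 in dKO. *Nsl1*, of the MIS12 complex, was the gene with the smallest p in both, at −0.49 in cKO and −0.70 in dKO (edgeR FDR of 1 in both). Between cKO and dKO it was *Knl1* (0.27, edgeR FDR of 1). Among 12 corona and checkpoint partners of CENP-E and CENP-F, 9 were lower in cKO (median −0.23) and 10 in dKO (median −0.26), with 1 and 2 of the 12 at an unadjusted p below 0.05, against 10.4% and 5.73% of the 10855 genes. Of those 10855 genes, 4502 were lower in cKO and 5032 in dKO. *Ttk*, which encodes the checkpoint kinase MPS1, was at −0.59 in cKO (edgeR FDR = 0.566). *Bub1b*, which encodes BUBR1, a kinase-related checkpoint protein that binds CENP-E, was at −0.56 in dKO (edgeR FDR = 0.989). *Nde1* had the smallest p between cKO and dKO (0.31, edgeR FDR of 1).

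Genes of dividing cells were set beside the CENP genes. For reference, 4502 of the 10855 genes were lower in cKO than in ctrl and 5032 were lower in dKO. The 20 genes of G2 and mitosis had a median of −0.20 in cKO (18 lower) and −0.18 in dKO (17 lower), with the smallest p for *Prc1* in cKO (−0.30, edgeR FDR of 1), and for *Ccna2* in dKO (−0.63, edgeR FDR = 0.853) and between cKO and dKO (0.45, edgeR FDR of 1). The 16 genes of S phase with counts had medians of −0.13 and −0.02, with the smallest p for *Uhrf1* in cKO (−0.30) and for *Mcm4* in dKO (−0.48) and between cKO and dKO (0.38), each at an edgeR FDR of 1. Of 9 apical progenitor genes with counts, all were lower in cKO (median −0.35) and 7 in dKO (median −0.19). *Prom1* had the smallest p in both (cKO −0.48, edgeR FDR = 0.566, and dKO −0.52, edgeR FDR = 0.799), and *Nes* between cKO and dKO (−0.32, edgeR FDR of 1). *Sox2* was listed at 0 in every mouse. The summed level of this list was 581 to 902 CPM in ctrl, 557 to 767 in cKO and 562 to 802 in dKO. All 6 intermediate progenitor genes were lower in cKO (median −0.78), and *Eomes* (−1.13, edgeR FDR = 5.1e-06) and *Neurog2* (−1.19, edgeR FDR = 0.00564) fell. In dKO *Neurog2* was at −0.64 (edgeR FDR = 0.708). *Eomes* had the smallest p of the list between cKO and dKO (−0.58, edgeR FDR = 0.780). The summed level of these genes was 158 to 213 CPM in ctrl, 87.3 to 163 in cKO and 104 to 186 in dKO. Their part in the *Cenpa* values was not tested.

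Other cell types were followed in the same way. Among 8 interneuron genes, *Gad1* rose in cKO (0.56, edgeR FDR = 0.0408) and had the smallest p between cKO and dKO (0.50, edgeR FDR = 0.303), as *Lhx6* had in dKO (0.26, edgeR FDR of 1). The list had a summed level of 436 to 919 CPM in ctrl, 785 to 968 in cKO and 608 to 869 in dKO. The 7 excitatory neuron genes with counts were all higher in cKO, as were 6353 of the 10855 genes. Their summed level was 4566 to 5010 CPM in ctrl, 5045 to 6130 in cKO and 4217 to 5614 in dKO, and *Tubb3* was listed at 0. Their smallest p were those of *Map2* in cKO (0.29, edgeR FDR = 0.663), *Tbr1* in dKO (−0.07, edgeR FDR of 1) and *Dcx* between cKO and dKO (0.31, edgeR FDR of 1). In the choroid plexus list *Ttr* was lower in cKO than in ctrl (−5.61, edgeR FDR = 0.00652) and than in dKO (−5.02, edgeR FDR = 0.000404). Its summed level was 0 to 54.5 CPM in ctrl, 0.682 to 1.75 in cKO and 2.13 to 25.9 in dKO. The smallest p of this list in dKO was that of *Kcnj13*, at a mean of 0.511 CPM in dKO and 0 in every ctrl mouse. *Hba-a2* of red blood cells was higher in dKO than in ctrl (1.98, edgeR FDR = 0.0203), with 9.41 to 28.6 CPM over the list in ctrl and 24.9 to 31.4 in dKO. Its near-identical copy *Hba-a1* can share its reads. In this list the smallest p were those of *Hbb-bt* in cKO (1.52, edgeR FDR = 0.864) and *Alas2* between cKO and dKO (−1.46, edgeR FDR = 0.289). The 10 microglia genes summed to 7.60 to 29.0 CPM over all groups and the 8 genes of endothelial cells and pericytes to 95.6 to 199.6 CPM. Their smallest p belonged to *C1qc* (1.49) and *Rgs5* (0.39) in cKO, to *Cx3cr1* (1.02) and *Flt1* (0.37) in dKO and to *C1qc* (1.11) and *Cdh5* (−0.46) between cKO and dKO, with edgeR FDR from 0.459 to 1.

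The genes whose log2 CPM ran most like the mean of the 10 CENP genes over the 15 mice, among 9170 genes with a mean of at least 10 CPM, were *Lims1* (Pearson's r of 0.87), *Prr11* (0.87), *Smarcb1* (0.86), *Iqgap2* (0.86) and *Plod2* (0.86). These 5 were picked as the highest of 9170 values across mice that share litters and batches. *Prr11* is known as a cell-cycle gene. None of the 5 is a kinetochore gene.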

How the data were processed

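E15.5 cortex of 15 mice was sequenced in 16 Click-seq libraries after rRNA depletion. Per the labels and methods, the authors trimmed reads with cutadapt 1.13, aligned them to GRCm38/mm10 with STAR 2.5.2a, collapsed PCR copies with UMI-tools 0.5.3 and ran htseq-count 0.6.1p1 in intersection-nonempty mode. The deposited values are whole-number counts per gene and library, not normalized. The annotation release and strand setting are not given in the sources used here. A total of 5 summary lines that name no gene were left out, and 51633 of 51912 identifiers matched GENCODE M21, which gave symbols and coordinates.

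The counts of libraries S2 and S2b were summed. Each pair of groups was fitted on all listed genes with edgeR 4.0.16 in R 4.3.3 (TMM, glmFit and likelihood ratio test, Benjamini–Hochberg FDR, no covariates). The study names edgeR, likelihood ratio tests and Benjamini–Hochberg adjustment, and the other settings were chosen here. Intervals are 95% Wald intervals. In simulated counts of 51912 genes, 200 genes drawn from those above 10 CPM were changed by 2-fold. All genes had the same dispersion. This test recovered 135 in cKO versus ctrl, 116 in dKO versus ctrl and 94 in cKO versus dKO, with 0, 5 and 1 false calls. *Cenpl* and *Cenpu* had group means below 10 CPM, so this recovery does not cover them. *Cenpk* and *Cenpn* were near this limit, at ctrl means of 13.9 and 10.7 CPM, and recovery at such levels was not counted apart. The alternatives were the quasi-likelihood F test, DESeq2 1.42.0, other scalings, filterByExpr, a joint fit, litter or batch terms, 1 batch, wild-type ctrl, S2 or S2b alone, each mouse left out and, for means of log2 CPM, a prior count of 0.5. The 10 genes, the gene lists and the tests were chosen with earlier results of these data known. Named beside the 10 were *Knl1*, *Trp53*, each list's genes at an FDR below 0.05 or else its gene of smallest p, and the 5 genes most like their mean. Some results under this rule are not reported here. The samples are separate mice except S2 and S2b. Promoter sequences are from RefSeq (GRCm38.p6), which held all 10 genes. Figures were drawn with matplotlib 3.10.9.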

Additional observations from a re-analysis of the deposited data

Results flagged for a closer look

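*Cenpc1* in dKO mouse T8 was at 84.1 CPM, above the other 3 dKO mice, which lay between 74.3 and 74.6 CPM. It was the only value that stood apart by Dixon's 95% criterion among the 30 sets made of 1 CENP gene in 1 group, and chance flags about 1 in 20 such sets. The value was inside the ctrl range of 46.7 to 126 CPM. It rested on 91 counts, beside 45 in T2, 247 in F1 and 383 in F7, and the part of counting error was not tested.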

How the results depend on the processing

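In dKO versus ctrl, *Cenpa* passed an FDR of 0.05 with the quasi-likelihood F test (1 of 10 genes) and without ctrl mouse 6 (1 of 10; range over the fits without 1 mouse 0 to 1), and its direction was the same in all alternatives of both comparisons with ctrl. All other counts of CENP genes at an FDR below 0.05 were 0. The median log fold change of the 10 genes ran from −0.13 to 0.072 in cKO versus ctrl, −0.16 to 0.16 in dKO versus ctrl and −0.065 to 0.15 in cKO versus dKO. Of 628 log fold changes of single genes under an alternative, 96 had the other sign, none of them *Cenpa*, and the cause was not tested. DESeq2 gave no adjusted p for 9 genes in dKO versus ctrl, where filterByExpr dropped *Cenpl* and *Cenpu*. A prior count of 0.5 moved the mean log2 CPM of the 10 genes, relative to ctrl, from 0.037 to 0.070 in cKO and from −0.0016 to 0.029 in dKO. Mice of different groups share litters but no replicate numbers, so the blocked fit is that with litter as a covariate, in which none of the 10 genes passed an FDR of 0.05 in any comparison. Depth limits *Cenpl*, *Cenpk*, *Cenpn* and *Cenpu* most, since shallow ctrl libraries held few of their counts. In cKO versus ctrl, the sign turned with all 3 groups in one fit (*Cenpe* 0.0097, *Cenpt* 0.011), litter as a covariate (*Cenpe* 0.094, *Cenpk* 0.046, *Cenpt* 0.12), batch as a covariate (*Cenpe* 0.11, *Cenpt* 8.5e-05), batch 1 only (*Cenpc1* 0.032, *Cenpe* 0.15, *Cenpt* 0.20), wild-type ctrl only (*Cenpe* 0.025, *Cenpt* 0.11), library S2 alone (*Cenpe* 0.012, *Cenpt* 0.0092), library S2b alone (*Cenpt* 0.010). With 1 mouse left out, the ranges of genes that changed sign were *Cenpt* −0.053 to 0.066, *Cenpe* −0.11 to 0.12, *Cenpf* −0.16 to 0.029, *Cenpn* −0.046 to 0.25, *Cenpc1* −0.12 to 0.030. In dKO versus ctrl, the sign turned with library totals without TMM (*Cenpn* −0.011), litter as a covariate (*Cenpc1* 0.016, *Cenpf* 0.13, *Cenpi* 0.41), batch as a covariate (*Cenpf* 0.077), batch 3 only (*Cenpf* 0.058), wild-type ctrl only (*Cenpn* −0.021, *Cenpt* 0.060). With 1 mouse left out, the ranges of genes that changed sign were *Cenpt* −0.098 to 0.057, *Cenpn* −0.14 to 0.29, *Cenpe* −0.12 to 0.32, *Cenpf* −0.19 to 0.0028, *Cenpi* −0.62 to 0.050. In cKO versus dKO, the sign turned with quasi-likelihood F test (*Cenpi* 0.15), DESeq2 (*Cenpu* −0.033), RLE size factors (*Cenpu* −0.022), library totals without TMM (*Cenpf* −0.045, *Cenpl* −0.00077, *Cenpt* −0.019, *Cenpu* −0.045), filterByExpr (*Cenpf* −0.0018, *Cenpu* −0.029), litter as a covariate (*Cenpe* 0.38, *Cenpi* 0.030, *Cenpl* −0.20, *Cenpt* −0.15, *Cenpu* −0.32), batch as a covariate (*Cenpc1* −0.035, *Cenpe* 0.050, *Cenpk* −0.0062, *Cenpl* −0.23, *Cenpt* −0.18, *Cenpu* −0.29), batch 3 only (*Cenpc1* −0.038, *Cenpe* 0.051, *Cenpk* −0.034, *Cenpl* −0.24, *Cenpt* −0.18, *Cenpu* −0.29), library S2 alone (*Cenpu* −0.032), library S2b alone (*Cenpi* 0.017). With 1 mouse left out, the ranges of genes that changed sign were *Cenpe* −0.28 to 0.15, *Cenpi* −0.28 to 0.37, *Cenpt* −0.021 to 0.12, *Cenpf* −0.037 to 0.14, *Cenpl* −0.13 to 0.19, *Cenpn* −0.097 to 0.32, *Cenpu* −0.19 to 0.29, *Cenpk* −0.037 to 0.39.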
